A study of Mus musculus with 32 samples.

Results

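The AP-1 transcription factors and Atf3 were followed through sorted nuclei of the mouse gut wall. The members are 10 genes chosen by name (Fos, Fosb, Fosl1, Fosl2, Jun, Junb, Jund, Atf3, Batf and Batf3), all 10 of which are among the 51912 genes of the deposited table, and no threshold on a measured value entered the choice, although earlier results of these data were known. The mice were C57BL/6 animals kept specific pathogen free at 1 of 2 animal facilities, the University of Bern or the Francis Crick Institute. All received an intravenous AAV9 vector carrying EGFP fused to a KASH nuclear envelope anchor under a CaMKII promoter, and 5 weeks later nuclei were prepared from the longitudinal muscle layer with its attached myenteric plexus, from small intestine (SI) and colon. The labels give the EGFP-positive sort as neuronal and the EGFP-negative sort as non-neuronal, so that facility, segment and sort make 8 groups of 4 libraries (numbered 1 to 4). Ages and sexes were not used, and the labels do not say whether the 4 libraries of a group came from separate animals, so p-values measure the spread between these libraries. Only cells that the vector reached and in which the promoter was active could be sorted as neuronal.

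AP-1 is a dimer of basic leucine zipper proteins. Fos proteins must pair with a Jun protein to bind the AP-1 site, whereas Jun proteins can also pair with each other. Fos, Fosb, Junb and Atf3 are among the members that count as immediate early genes. Transcripts of such genes rise within minutes of stimulation of a cell through factors that are already present. In neurons some of them, such as Fos, are widely used as markers of recent activity. Atf3 and Jun are also classic markers of injured neurons, and Batf proteins pair with Jun proteins mainly in immune cells.

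In GRCm38, Fos lies on chromosome 12 from 85473890 to 85477273, and Batf starts 209 kb beyond its end on the same strand. Batf3 and Atf3 are 61 kb apart on chromosome 1, on opposite strands, with Atf3 from 191170296 to 191218039. Junb (84974484 to 84978718) and Jund (70698949 to 70700616) share chromosome 8, Jun lies on chromosome 4 (95049034 to 95052222), Fosb on chromosome 7 (19302696 to 19310051), Fosl1 on chromosome 19 (5447547 to 5455946) and Fosl2 on chromosome 5 (32135801 to 32157842). No strand setting was stated for the counting, so reads of a gene and of an overlapping gene on the other strand cannot be told apart. This touches Jun, which shares 689 bases with the antisense gene Junos (688 counts over 32 libraries, against 6140 for Jun), Junb, which shares 351 bases with Prdx2 (1708 counts, against 1537), Jund, which shares 919 bases with Gm11175 (303 counts, against 1313), and Fosl1, which shares 2767 bases with Ccdc85b (128 counts, against 209).

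The promoters of Fos and Junb are shown because these were the members that differed between the facilities in neuronal nuclei. Each window runs from 250 bases before the annotated start to 50 bases after it, 5′ to 3′ on the gene's strand, from RefSeq on GRCm38.p6, and capitals mark every match to the 5 motifs searched (the Fos window is chr12:85473640-85473939, plus strand, and the Junb window is chr8:84978699-84978998, minus strand).
Fos: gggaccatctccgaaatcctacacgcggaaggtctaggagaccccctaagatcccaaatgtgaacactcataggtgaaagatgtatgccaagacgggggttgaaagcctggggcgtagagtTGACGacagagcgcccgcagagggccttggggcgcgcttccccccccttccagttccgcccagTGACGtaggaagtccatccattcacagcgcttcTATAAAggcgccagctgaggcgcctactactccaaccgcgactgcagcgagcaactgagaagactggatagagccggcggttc
Junb: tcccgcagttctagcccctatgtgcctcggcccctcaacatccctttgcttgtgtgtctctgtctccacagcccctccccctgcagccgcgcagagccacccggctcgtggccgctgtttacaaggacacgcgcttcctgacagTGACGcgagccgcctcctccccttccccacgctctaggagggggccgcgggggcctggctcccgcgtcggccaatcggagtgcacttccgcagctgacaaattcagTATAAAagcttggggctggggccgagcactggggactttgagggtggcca
In the Fos window the capitals are 2 core cAMP response elements (TGACG, first bases at -129 and -66 from the start) and a TATA box (TATAAA, at -33), and in the Junb window they are 1 core element (at -106) and a TATA box (at 1). Windows were found for 9 of the 10 members (not Fosl1). Their RefSeq starts differ from the gene spans given above for some members. The Junb start lies upstream of its span, so the position of its TATAAA match depends on the start used. The Jund window (70697489 to 70697788) ends before the Jund span, and the Atf3 window (191183284 to 191183583) lies inside the Atf3 span. The following shares hold for these windows only. A core element on either strand was present in 5 of the 9 (Fos, Fosb, Junb, Atf3 and Batf), against 20.8% of 32851 promoter windows, and the TATA box in 2 of the 9, against 13.6%. The AP-1 site TGACTCA (5.2% of windows), the full cAMP response element (1.79%, which also contains the core element) and the CArG box (1.63%) matched in 0 of the 9. A match is a match of letters in this window and does not show a bound site.

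Library totals ran from 2394517 to 8350908 estimated counts. Facility cannot be told apart from anything else that differed between the 2 sets of libraries: 15648 to 22444 genes were detected in Bern libraries and 25694 to 35071 in Crick libraries. The sort was checked on marker lists. The summed level of 12 neuron markers was 2370 to 5865 CPM (counts scaled to the library's size) in neuronal and 51.6 to 1815 CPM in non-neuronal libraries, with all 12 detected in every neuronal library, and 8 smooth muscle markers summed to 393 to 1245 against 5881 to 22780 CPM. Markers of interstitial cells of Cajal did not follow the sort: these 4 genes reached 639 to 2198 CPM in neuronal SI libraries against 238 to 1126 CPM in non-neuronal SI libraries. Of the libraries that stood apart, 2 had a high mitochondrial share (Crick SI non-neuronal 2 at 23.6% and Crick SI neuronal 2 at 15.99%), 3 were the non-neuronal libraries with the highest neuron marker sums (Bern colon 1 and 2 at 1815 and 1725 CPM and Bern SI 1 at 1012 CPM) and 1 held the most macrophage and lymphocyte RNA (Crick colon non-neuronal 3). Calls were repeated without these 6. Bern colon non-neuronal 3 (928 CPM) and 4 (848 CPM) were kept, although their neuron marker sums were also above those of the other 11 non-neuronal libraries (51.6 to 473 CPM).

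All levels below are CPM scaled by the trimmed mean of M values, and a log2 fold change is given ± its SE with the edgeR quasi-likelihood p adjusted by Benjamini-Hochberg over all genes tested, called at 0.05. In bulk nuclei, fewer expressing nuclei and less RNA per nucleus cannot be told apart. The 7 comparisons reuse the same libraries and are not independent of each other. Enough counts for a test were found for 8 members over all 32 libraries and over the 16 non-neuronal libraries (not Batf or Batf3) and for 6 over the 16 neuronal libraries (not Fosl1 and Atf3 either).

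Between sorts, 4 of the 8 tested members (Jun, Fosl2, Atf3 and Fosl1) were lower in neuronal nuclei and none was higher, against 43.5% of the 21522 genes tested that were called in either direction, so the share of members called was near the background. Within single strata the called members were Jun and Atf3 in Bern colon (25.2% of genes called), Fosl2, Jun and Atf3 in Bern SI (30.1%), Fosl2, Jun and Atf3 in Crick colon (18.6%) and Fosl2 in Crick SI (11.6%). All of these were lower in neuronal nuclei except Atf3 in Bern SI, which was higher there. Bern against Crick called Junb and Fos among 6 tested members in neuronal nuclei, both higher in Bern, against 7.72% of genes, and Atf3 among 8 in non-neuronal nuclei, lower in Bern, against 9.29%. Colon against SI called none of 6 members in neuronal nuclei (5.52% of genes called), where Fosl2 alone had an unadjusted p under 0.05 and DESeq2 called 1 member (Fosl2), and 1 of 8, Atf3, in non-neuronal nuclei (9.32%). The sort difference depended on the segment for Atf3 only (6.53% of genes called), and on the facility for none of 8 (0.204% of genes called; Atf3 alone had an unadjusted p under 0.05, and DESeq2 called 0). Whether other differences differed between strata was not tested.

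**Figure D1:**
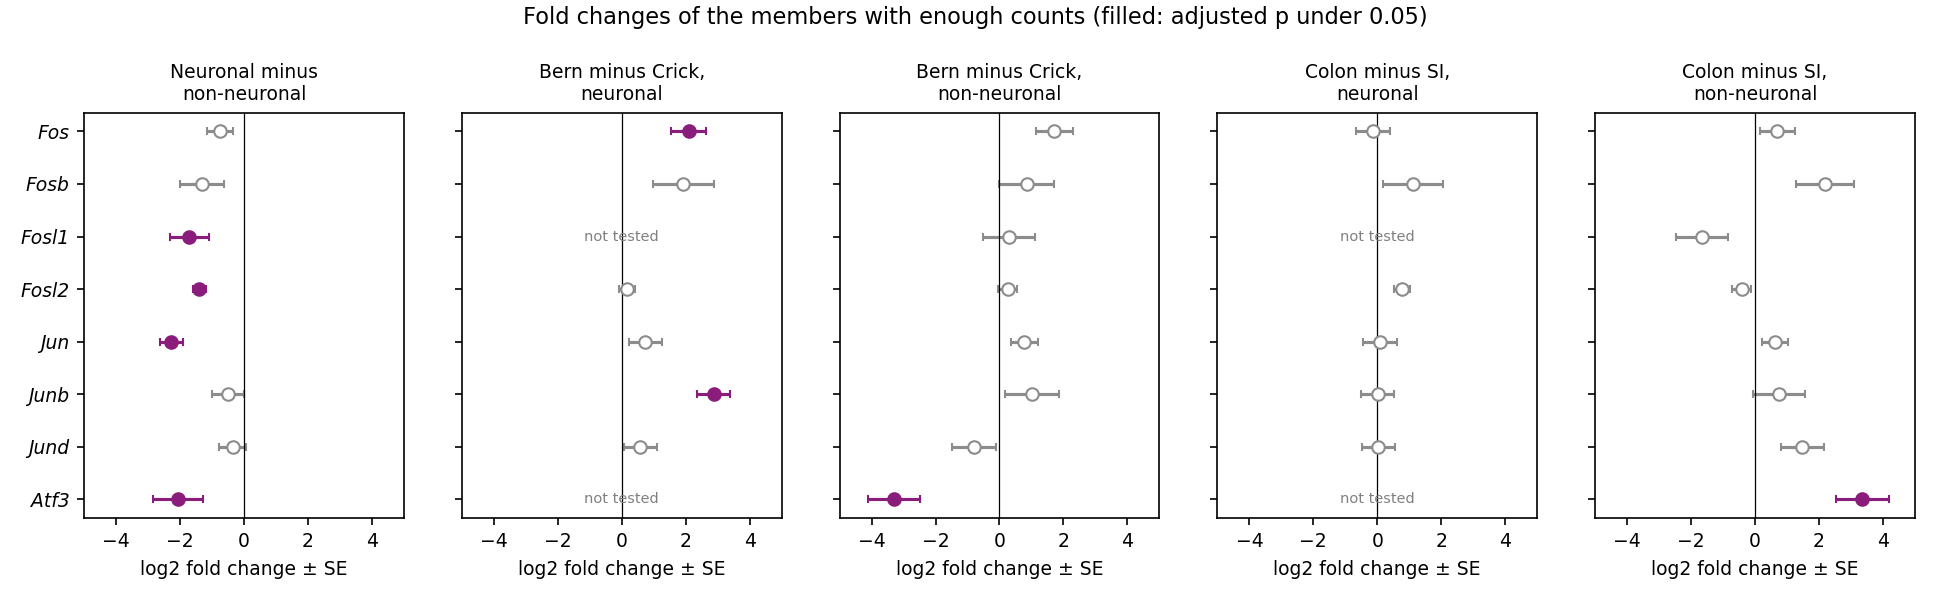
Log2 fold change (x axis, ± SE) of the 8 members with enough counts in 5 comparisons, with filled points where the adjusted p was under 0.05. All 8 points lie left of 0 in the neuronal against non-neuronal panel, with Jun, Fosl2, Fosl1 and Atf3 filled. All tested members lie right of 0 in the neuronal facility panel, with Junb and Fos filled. Atf3 has the largest distance from 0 in both non-neuronal panels.

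Fos encodes the prototype partner of Jun proteins. In Bern colon it was at 114, 28.0, 13.3 and 9.54 CPM in neuronal libraries 1 to 4 and at 130.2, 61.8, 140.4 and 2.61 CPM in non-neuronal libraries 1 to 4. In Bern SI it was at 152, 23.4, 74.9 and 11.1 CPM in neuronal and at 147, 17.3, 127 and 23.5 CPM in non-neuronal libraries. Within the Bern groups the highest library was 8.50 to 53.9 times the lowest, and neuronal and non-neuronal libraries overlapped. In Crick colon it was at 17.8, 13.7, 18.5 and 6.72 CPM in neuronal and at 41.6, 42.0, 70.1 and 19.1 CPM in non-neuronal libraries. In Crick SI it was at 9.43, 20.2, 8.65 and 3.84 CPM in neuronal and at 20.6, 25.8, 9.36 and 5.18 CPM in non-neuronal libraries. Crick libraries were closer together, the highest at 2.75 to 5.27 times the lowest, and in Crick colon every neuronal library was below every non-neuronal one. Ordered by mean, the groups ran from Bern colon non-neuronal (83.8 ± 64.4 CPM, SD, n = 4) to Crick SI neuronal (10.5 ± 6.92 CPM), and all neighbours in that order overlapped.

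In neuronal nuclei Fos was higher in Bern, 53.2 against 12.4 CPM on average (log2 fold change 2.09 ± 0.54, adjusted p = 0.0199). The call rested on single libraries: it was lost without Bern colon neuronal 1 (adjusted p = 0.0623) or Bern SI neuronal 1 (0.0618), and with limma-voom (0.0746), and within 1 segment it was not called in colon (1.53 ± 0.75, adjusted p = 0.252) or SI (2.65 ± 0.78, 0.136). In non-neuronal nuclei the mean was 81.2 CPM in Bern against 29.2 CPM in Crick (1.72 ± 0.57, adjusted p = 0.0617), which was not called but became so without Bern colon non-neuronal 4 (0.0130), Bern SI non-neuronal 2 (0.0315) or Bern SI non-neuronal 4 (0.0345), with DESeq2 (0.0263), with no filter on low counts (0.00141) and in 1 fit of all 32 libraries (0.0442). The sort difference in Fos was -0.75 ± 0.41 (adjusted p = 0.141), with means of 32.8 CPM (neuronal) and 55.2 CPM (non-neuronal). It passed without Bern colon neuronal 1 (0.0294) and with no filter on low counts (0.0127). It also passed narrowly with a block for each facility, segment and library number, which pairs the sorts (-0.68, adjusted p = 0.0489). Its dependence on the facility was 0.39 ± 0.82 (adjusted p = 0.911). Beside these facility values, the neuron marker sum was 4339 to 5865 CPM in Bern neuronal and 2370 to 3449 CPM in Crick neuronal libraries, and its part in the difference was not tested.

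**Figure D2:**
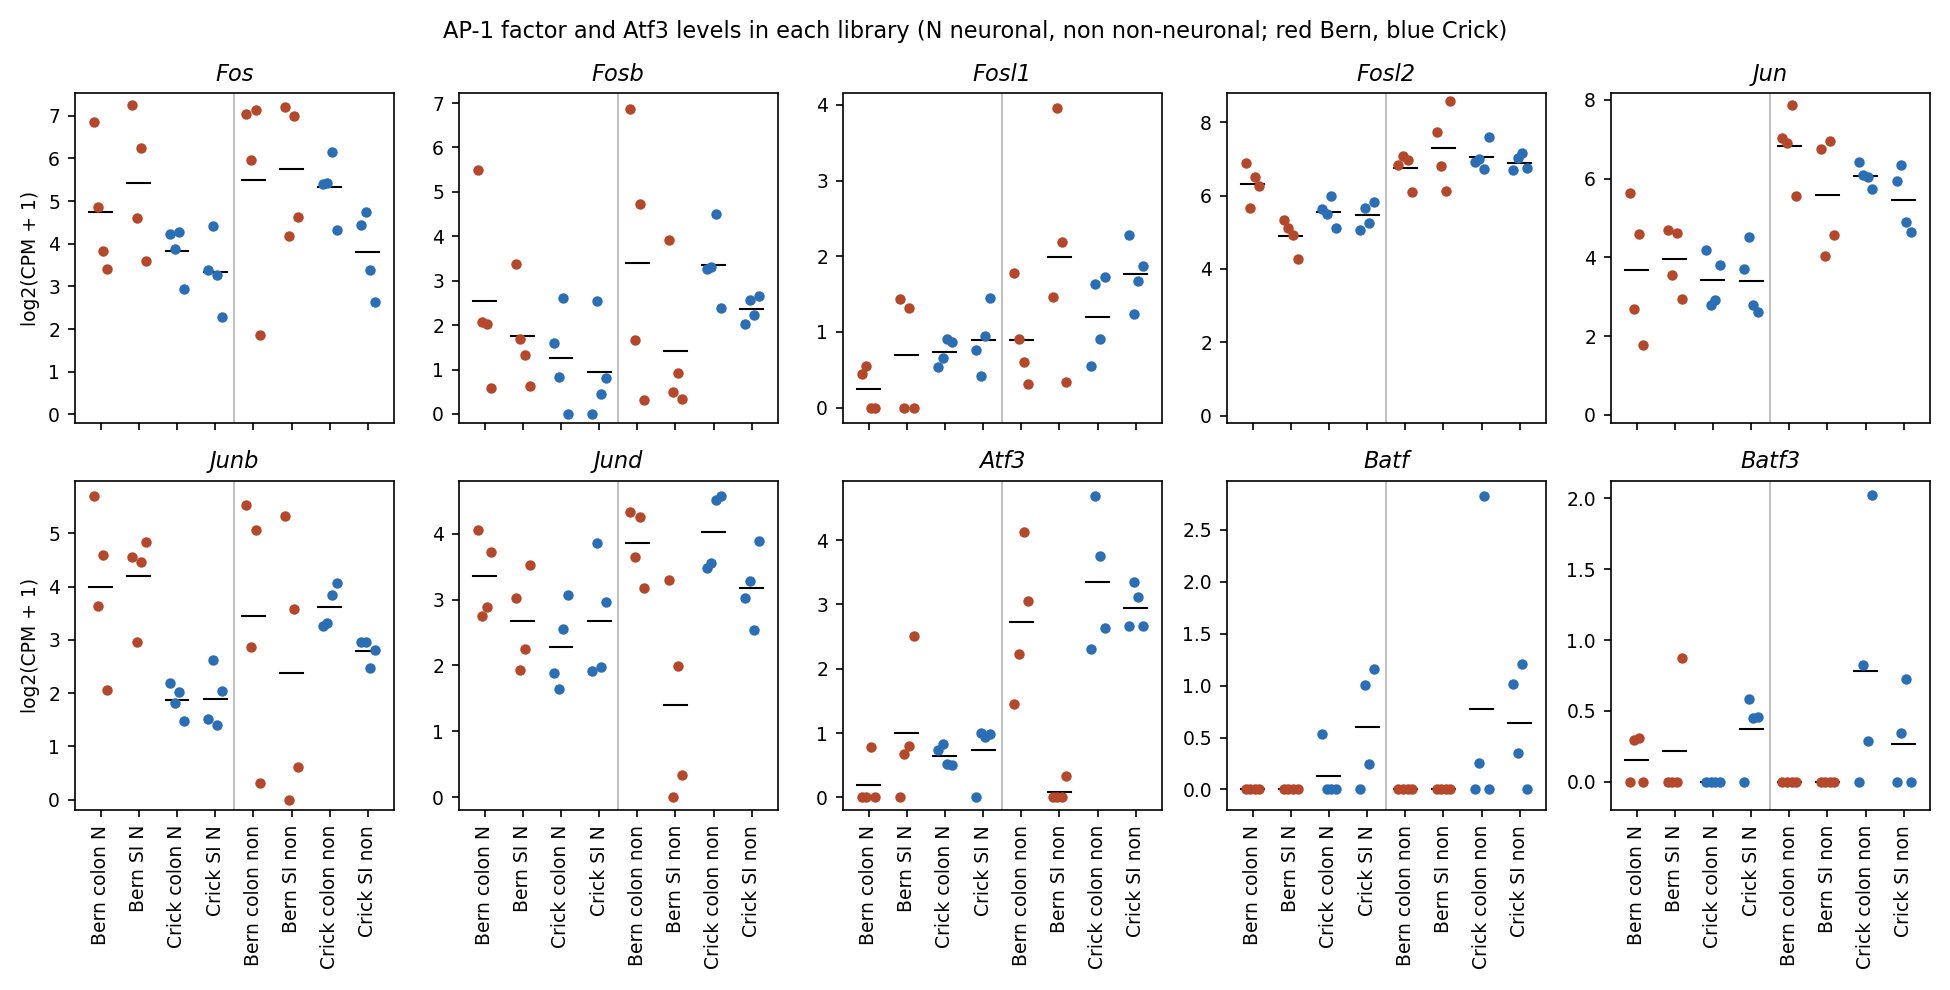
Level of each member as log2(CPM + 1) (y axis) in every library, by group on the x axis (N neuronal, non non-neuronal, red Bern, blue Crick), with a bar at the group mean of the 4 libraries. Fos, Fosb and Junb scatter over several log2 units within Bern groups, Fosl2 and Jun are lower left of the grey line in most groups, and Batf is at 0 in all 16 Bern libraries.

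Fosb, a close relative of Fos that is also induced by activity, was spread widely in Bern colon. In Bern colon it was at 44.2, 3.21, 3.09 and 0.489 CPM in neuronal libraries 1 to 4 and at 116, 2.18, 25.6 and 0.237 CPM in non-neuronal libraries 1 to 4. In Bern SI it was at 9.31, 2.20, 1.50 and 0.552 CPM in neuronal and at 14.1, 0.402, 0.890 and 0.262 CPM in non-neuronal libraries. In each of the 4 Bern groups library 1 was the highest and library 4 the lowest. Library 4 held only 1 or 2 counts in each of these groups. In Bern SI non-neuronal nuclei libraries 2 and 4 both held 1 count and differed in depth only. Crick libraries ranged from 0 to 5.07 CPM in neuronal and from 3.06 to 21.8 CPM in non-neuronal nuclei. Neither the sort difference (-1.31 ± 0.67, adjusted p = 0.115) nor the neuronal facility difference (1.93 ± 0.95, adjusted p = 0.225) was called. The sort difference passed without Bern colon neuronal 1 (0.0195) or Crick SI neuronal 2 (0.0317) and with no filter on low counts (0.0182). It also passed with a block for each facility, segment and library number (-1.38, adjusted p = 0.0360). In non-neuronal nuclei the mean was 23.4 CPM in colon against 4.08 CPM in SI (2.19 ± 0.89, adjusted p = 0.128), which passed without Bern SI non-neuronal 1 (0.0148) and with DESeq2 (0.0399).

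Fosl2 (Fra-2), which lacks the strong activation domain of Fos, had the most counts of all members, 13628 over the 32 libraries. In Bern colon it was at 118, 49.3, 91.0 and 75.4 CPM in neuronal libraries and at 113, 134, 125 and 68.2 CPM in non-neuronal libraries. In Bern SI it was at 39.5, 34.0, 29.2 and 18.2 CPM in neuronal and at 211, 112, 68.9 and 380.3 CPM in non-neuronal libraries. The Bern SI sorts did not overlap, whereas the Bern colon sorts did. In Crick colon it was at 48.4, 44.5, 62.8 and 34.0 CPM in neuronal and at 120.1, 127, 106 and 195 CPM in non-neuronal libraries. In Crick SI it was at 32.7, 50.2, 37.2 and 56.3 CPM in neuronal and at 102, 129, 143 and 106 CPM in non-neuronal libraries. In both Crick strata every neuronal library was below every non-neuronal one. Fosl2 was lower in neuronal nuclei, 51.3 against 139.9 CPM on average (log2 fold change -1.40 ± 0.20, adjusted p = 2.65e-07), and no single library left out ended the call (adjusted p at most 9.97e-07). Within strata the difference was -2.59 ± 0.41 in Bern SI (adjusted p = 1.01e-05), -1.37 ± 0.40 in Crick colon (0.0118) and -1.36 ± 0.40 in Crick SI (0.0185), but -0.27 ± 0.39 in Bern colon (0.657), where it was not called.

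In neuronal nuclei Fosl2 averaged 65.4 CPM in colon and 37.2 CPM in SI (log2 fold change 0.77 ± 0.25, adjusted p = 0.0759), which was not called over both facilities. Within Bern it was higher in colon with no overlap of libraries (1.43 ± 0.36, adjusted p = 0.0283, against 4.16% of genes called there), and within Crick the value was 0.12 ± 0.35 (adjusted p = 0.9995). Without Bern colon neuronal 2 the pooled difference passed (0.0415), as it did with DESeq2 (0.0273). The dependence of the sort difference on segment was 1.15 ± 0.39 (adjusted p = 0.0695). It passed without Bern SI non-neuronal 2 (0.0438) or 3 (0.0256), with DESeq2 (0.0331) and within Bern (2.32 ± 0.56, 0.00911), and was -0.02 ± 0.55 within Crick.

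Fosl1 (Fra-1), often raised by sustained growth factor signalling, was low, from 0 to 1.73 CPM in neuronal libraries (median 0.518) and from 0.237 to 14.5 CPM in non-neuronal libraries (median 1.94). It was lower in neuronal nuclei (log2 fold change -1.71 ± 0.60, adjusted p = 0.0197), but the highest library, Bern SI non-neuronal 2, decided the call (0.0542 without it). The call was also lost without the 6 libraries that stood apart (0.104) and with no filter on low counts (0.0665), and it was made in none of the 4 strata.

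Jun, which can form AP-1 alone or with any Fos protein, showed the larger of the 2 sort differences whose calls held with every library left out in turn. In Bern colon it was at 48.6, 5.50, 23.0 and 2.45 CPM in neuronal libraries and at 129, 118, 230.3 and 45.9 CPM in non-neuronal libraries. In Bern SI it was at 25.0, 10.8, 23.6 and 6.63 CPM in neuronal and at 107, 15.3, 123 and 22.5 CPM in non-neuronal libraries. The 2 sorts overlapped in both Bern strata. In Crick colon it was at 17.2, 5.97, 6.61 and 13.03 CPM in neuronal and at 84.8, 66.8, 65.0 and 52.3 CPM in non-neuronal libraries. In Crick SI it was at 11.96, 21.7, 5.89 and 5.07 CPM in neuronal and at 60.6, 79.5, 29.0 and 24.1 CPM in non-neuronal libraries. Both Crick strata separated completely. Jun was lower in neuronal nuclei, 14.6 against 78.3 CPM on average (log2 fold change -2.27 ± 0.35, adjusted p = 1.49e-06, at most 4.73e-06 with any library left out). The 4 strata gave -2.61 ± 0.72 in Bern colon (adjusted p = 0.00695), -1.96 ± 0.70 in Bern SI (0.0320), -2.50 ± 0.71 in Crick colon (0.0109) and -2.03 ± 0.70 in Crick SI (0.0542, not called). Its antisense neighbour Junos gave -0.98 ± 0.43 (adjusted p = 0.0611) for the same difference. Neither facility nor segment was called for Jun in either sort, with adjusted p from 0.253 to 0.955.

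The lower Jun, Fosl2 and Fosl1 in neuronal nuclei went with lower median sums of the markers of every other cell type looked at, except interstitial cells of Cajal. Fibroblast markers (6 genes) summed to 18.5 to 97.6 CPM in neuronal and 671 to 1814 CPM in non-neuronal libraries, macrophage markers (7 genes) to 6.21 to 32.3 against 64.3 to 814 CPM, and enteric glia markers (6 genes) to 2.14 to 35.5 against 22.1 to 225 CPM. Up to 5 of the 7 macrophage markers were at 0 in a neuronal library, and 0 of the 8 smooth muscle markers. The part of each cell type in the members' levels was not tested.

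Junb, a Jun protein that activates transcription more weakly than Jun at most AP-1 sites, differed by facility. In colon neuronal libraries 1 to 4 it was at 51.1, 11.5, 23.0 and 3.18 CPM in Bern and at 3.57, 2.50, 3.08 and 1.78 CPM in Crick. In SI neuronal libraries it was at 22.6, 6.81, 21.0 and 27.6 CPM in Bern and at 1.84, 5.18, 1.66 and 3.09 CPM in Crick. The 2 facilities did not overlap in SI, and in colon only Bern library 4 fell below the highest Crick library. Junb was higher in Bern neuronal nuclei, 20.8 against 2.84 CPM on average (log2 fold change 2.88 ± 0.52, adjusted p = 0.00177). The call held with each of the 16 libraries left out in turn (adjusted p at most 0.00645) and within colon (3.01 ± 0.75, 0.0314, against 3.1% of genes called), but not within SI (2.75 ± 0.73, 0.0908). Prdx2, which overlaps Junb on the other strand, gave -0.20 ± 0.38 (adjusted p = 0.795) in the same comparison.

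In non-neuronal libraries Junb was at 45.3, 6.33, 32.7 and 0.237 CPM in Bern colon and at 39.2, 0, 10.98 and 0.523 CPM in Bern SI. It was at 8.55, 9.02, 13.3 and 15.8 CPM in Crick colon and at 6.74, 6.79, 4.57 and 6.02 CPM in Crick SI. The Bern libraries lay on both sides of the Crick ones, so that the facility difference there was 1.02 ± 0.83 (adjusted p = 0.496). The Crick segments did not overlap, with colon higher. The test of whether the facility difference depended on the sort gave 1.86 ± 1.00 for Junb (adjusted p = 0.410), so that a difference between sorts was not shown. The sort difference of Junb itself was -0.50 ± 0.50 (adjusted p = 0.447), with opposite signs in the 2 facilities (0.18 ± 0.98 in Bern colon, 0.67 ± 0.99 in Bern SI, -1.93 ± 1.03 in Crick colon and -0.94 ± 1.01 in Crick SI), none of them called.

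Jund, the Jun protein expressed most evenly across tissues, ran from 2.12 to 15.7 CPM in neuronal libraries (median 6.07) and from 0 to 22.8 CPM in non-neuronal libraries (median 9.50). Its sort difference was -0.35 ± 0.42 (adjusted p = 0.544), although the Crick colon sorts did not overlap. In non-neuronal nuclei it averaged 15.3 CPM in colon and 5.82 CPM in SI (1.49 ± 0.69, adjusted p = 0.185), which passed without Bern SI non-neuronal 1 (0.0371), with DESeq2 (0.0405) and with limma-voom (0.0341).

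Atf3, a stress-induced factor that can repress or activate with Jun, had few counts in neuronal nuclei. In colon non-neuronal libraries 1 to 4 it was at 1.74, 3.71, 16.5 and 7.34 CPM in Bern and at 3.93, 24.8, 12.4 and 5.23 CPM in Crick. In SI non-neuronal libraries it was at 0, 0, 0 and 0.262 CPM in Bern and at 5.31, 9.23, 7.62 and 5.32 CPM in Crick. Bern SI was the exception among the non-neuronal groups, with 1 count in all 4 libraries together. These 4 libraries detected 15648 to 18359 genes and had mitochondrial shares of 11.1 to 12.9%, against 19690 to 20914 genes in Bern colon non-neuronal libraries, and the part of either in the Atf3 value was not tested. In neuronal libraries it was at 0, 0, 0.713 and 0 CPM in Bern colon and at 0, 0.601, 0.749 and 4.70 CPM in Bern SI. The Crick neuronal libraries were at 0.669, 0.770, 0.441 and 0.411 CPM in colon and at 0, 1.00, 0.920 and 0.990 CPM in SI. Every neuronal library was below every non-neuronal one in both colon strata and in Crick SI.

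Atf3 was lower in neuronal nuclei over all strata (log2 fold change -2.05 ± 0.78, adjusted p = 0.0296), 0.748 against 6.46 CPM on average. The call was lost with no filter on low counts (-2.16, adjusted p = 0.0668). Leaving out Bern SI non-neuronal 4 removes the single count of its group, and the pooled fit to an empty group (-1.57, adjusted p = 0.9999) cannot be read as a test of the difference. By stratum the difference was -4.98 ± 1.33 in Bern colon (adjusted p = 0.00561), -4.14 ± 1.22 in Crick colon (0.0135) and -3.08 ± 1.16 in Crick SI (0.0833, not called), and it turned around in Bern SI (3.98 ± 1.43, 0.0328). There 22 counts in neuronal libraries, 17 of them in library 4, stood against 1, a ratio of 20.9 (95% exact interval 3.38 to 863, counting error only). Fitted folds against a group with 1 count depend on the prior count and give no bound.

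Among non-neuronal nuclei Atf3 was higher in colon than in SI, 9.45 against 3.47 CPM on average (log2 fold change 3.36 ± 0.82, adjusted p = 0.0124, at most 0.0377 with any library left out). Among these leave-outs, the fit without Bern SI non-neuronal 4 again leaves its group without an Atf3 count and cannot be read as a test. Within Bern, 116 counts stood against 1 (ratio 111, 95% exact interval 19.5 to 4402, fitted 6.01 ± 1.34, adjusted p = 0.00986, against 10.1% of genes called), and within Crick the value was 0.71 ± 0.96 (adjusted p = 1). Bern was lower than Crick (-3.30 ± 0.82, adjusted p = 0.0137), with 3.69 against 9.23 CPM. Within SI, 133 counts in Crick stood against 1 in Bern (ratio 82.4, interval 14.5 to 3277, fitted -5.95 ± 1.34, adjusted p = 0.0218, against 4.44% of genes called), and within colon the value was -0.65 ± 0.96 (adjusted p = 0.865). Over both segments the facility difference was not called without the 6 libraries that stood apart (0.102). The sort difference of Atf3 differed between segments (colon minus SI -5.01 ± 1.24, adjusted p = 0.0109), again within Bern (-8.95 ± 1.94, 0.00465) and not within Crick (-1.07 ± 1.56, 0.9999). Its dependence on the facility was 3.11 ± 1.26 (adjusted p = 0.243).

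Batf and Batf3 were close to the detection limit. Batf had 0 counts in all 16 Bern libraries and 60 counts in Crick, 28 of them in Crick colon non-neuronal 3 (6.11 CPM). That library also had the highest macrophage sum (814 CPM, against a group median of 263 CPM) and the highest lymphocyte sum of 5 genes (440.1 CPM), and its part in the Batf value was not tested. Batf3 had 46 counts over all libraries, at most 3.06 CPM (Crick colon non-neuronal 4), with 0 in both Bern non-neuronal groups. A count of 0 over a group allows up to 3 counts, 0.200 CPM in Bern colon non-neuronal for example, and covers counting error only.

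Levels were compared between members only after division by exon length. Summed over the 10 members, CPM per kb of exon was 115 in Bern colon non-neuronal, 84.8 in Bern SI non-neuronal, 78.1 in Crick colon non-neuronal and 47.5 in Crick SI non-neuronal libraries, against 50.3 and 49.9 in Bern and 19.0 and 19.4 in Crick neuronal libraries (colon and SI). Fos had the largest share of this sum in Bern SI neuronal (55.6%), Bern SI non-neuronal (39.4%), Bern colon neuronal (34.9%) and Crick colon neuronal libraries (31.7%). Jun had the largest share in Bern colon (35.6%), Crick colon (27.0%) and Crick SI non-neuronal libraries (31.9%). Fosl2, with its long exons, was the first only in Crick SI neuronal libraries, at 23.5% against 23.1% for Fos. Junb was the second in both Bern neuronal groups (19.2% in colon and 17.0% in SI) and in none of the others.

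**Figure D3:**
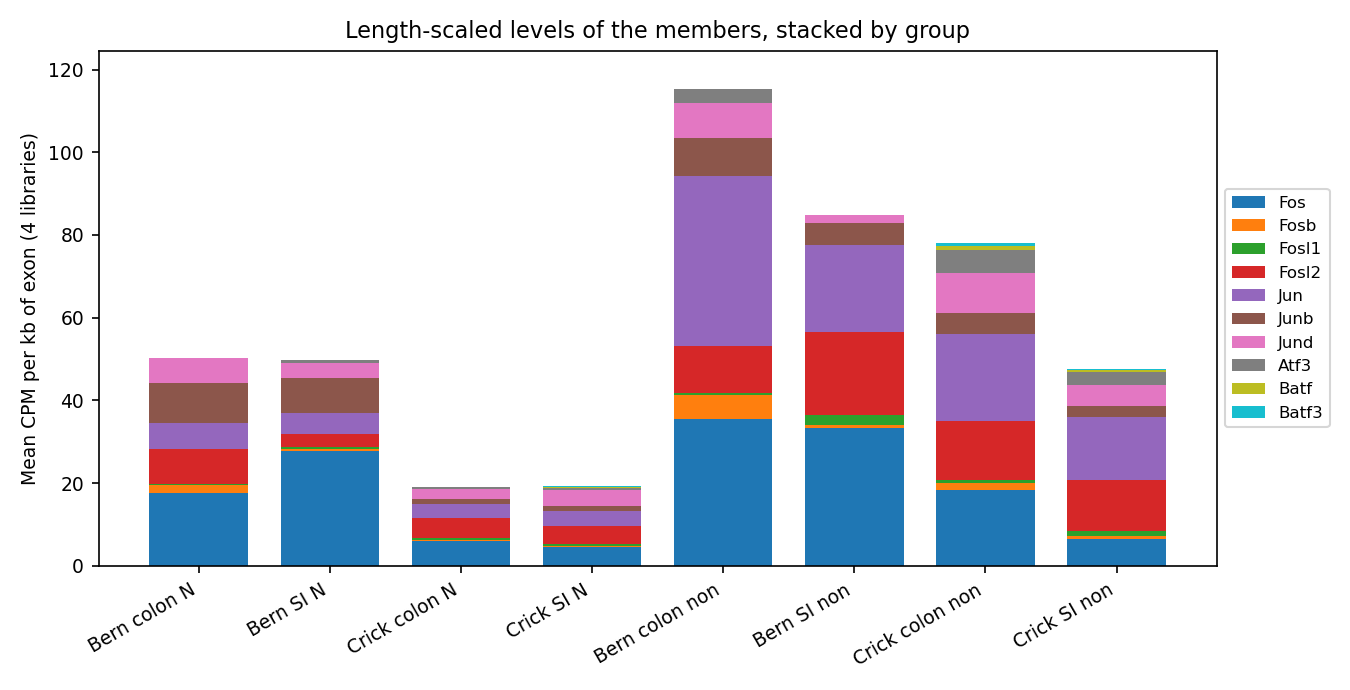
Mean CPM per kb of exon (y axis, 4 libraries a group) of the 10 members, stacked by group on the x axis. Non-neuronal bars reach 47.5 to 115 and neuronal bars 19.0 to 50.3, with Fos the largest segment of the Bern SI neuronal bar.

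The spread within Bern groups followed the library number for some members. Fosb was highest in library 1 and lowest in library 4 of all 4 Bern groups, with the low end resting on 1 or 2 counts. Fos was lowest in library 4 in 7 of the 8 groups, Bern SI non-neuronal (library 2) being the exception, and Jun was lowest in library 4 in 6 of 8. This was noticed after the values were seen, and the labels do not say what the numbers stand for. Among 14606 genes of at least 5 CPM on average, library 1 was the highest in all 4 Bern groups for 102 (0.698%). Any 1 number was the highest in all 4 Bern groups for 251 (1.72%), the share that suits a number picked after the fact. Library 4 was the lowest in at least 7 of 8 groups for 9 genes (0.0616%), Fos and Egr1 among them. Shares for any number being the lowest and for the Jun pattern were not counted. Total counts overlapped between the numbers in Bern, 2420859 to 3983022 for libraries numbered 1 and 3589492 to 4429861 for those numbered 4. In Crick colon, library 4 had the highest total of its group in non-neuronal (8350908, the next 5374754) and neuronal nuclei (6828375, the next 4566159). The same held in Crick SI non-neuronal nuclei (7171353, the next 5880368). In Crick SI neuronal nuclei library 4 (7286956) was below library 2 (8192773). The part of the totals in these patterns was not tested.

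**Figure D4:**
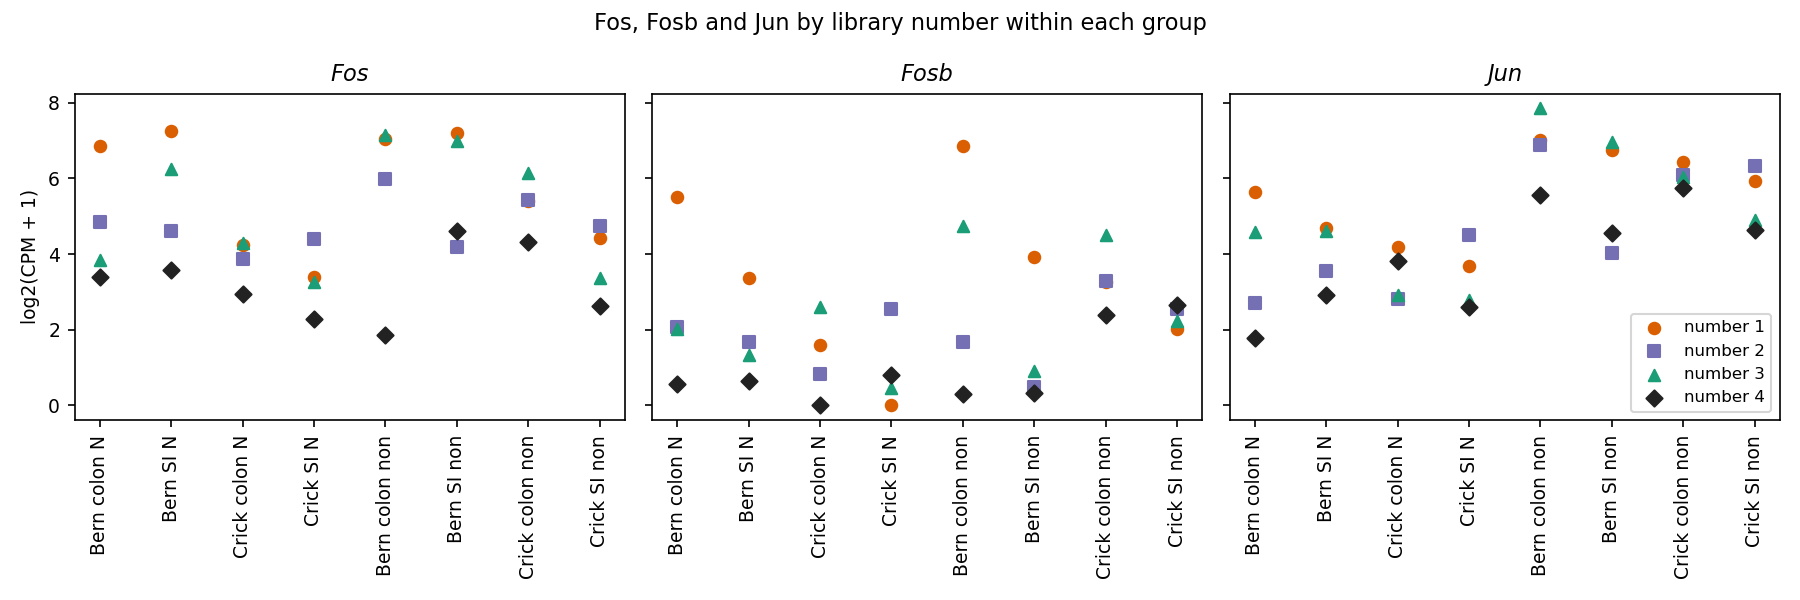
Fos, Fosb and Jun as log2(CPM + 1) (y axis) by group (x axis), with 1 symbol per library number. In the 4 Bern groups the circle (number 1) tops the Fosb panel and the diamond (number 4, 1 or 2 counts) is at its bottom. The diamond is the lowest Fos point in 7 of 8 groups.

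Genes most like each member were ranked by Pearson's r of log2(CPM + 1) over the 32 libraries among 9773 genes of at least 10 CPM on average. These values are descriptions, and all points share depth, facility and sort. Fos was most like Egr1 (r = 0.823), Junb (0.703) and Jun (0.642), and Fosb most like Junb (0.739), Fos (0.685) and Hoxa9 (0.684). Jun was most like Txnip (0.872), Ccn1 (0.840) and Zfp36 (0.835), and Fosl2 most like Ptgs1 (0.841), Slc8b1 (0.819) and Htra3 (0.813). Junb followed Hist2h2aa2 (0.726), Nt5dc3 (0.714) and Fos (0.703), and Jund followed Ltbp4 (0.803), Col16a1 (0.781) and Shisa5 (0.755). Atf3 was most like Tnfaip8 (0.807), Bhlhe40 (0.806) and Ttll10 (0.790), and Fosl1 most like Cys1 (0.774), Kyat3 (0.773) and Atp5j (0.744).

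Other genes of the pathway were taken from lists of immediate early genes, other bZIP factors, kinases and factors upstream of AP-1, AP-1 target genes and genes of the neuron injury response. In neuronal nuclei 7 of 16 tested immediate early genes other than the members were higher in Bern and 0 lower, with a median log2 fold change of 1.31 against 0.01 over all 17419 genes. Of all these genes 7.72% were called. Egr1, a zinc finger factor induced by the same kinases as Fos, averaged 621 CPM in Bern and 29.6 CPM in Crick (4.44 ± 0.50, adjusted p = 2.15e-05), with group medians of 469 and 524 CPM in Bern colon and SI and 37.8 and 15.9 CPM in Crick. Btg2, an antiproliferative immediate early gene, gave 1.75 ± 0.40 (adjusted p = 0.0104), and both calls held with each library left out in turn. Arc (1.96 ± 0.52) and Ier3 (2.04 ± 0.58) were called as well, but lost the call when any 1 of 7 (Arc) or 8 (Ier3) of the 16 libraries was left out (adjusted p up to 0.0571 and 0.137). Of the upstream list 3 of 18 were higher and 0 lower, among them the kinases Mapk3 (1.19 ± 0.27, adjusted p = 0.00806, but 0.0816 in 1 fit of all 32 libraries) and Map3k12 (0.97 ± 0.21, 0.00550). Other bZIP factors gave 2 higher and 0 lower of 18, the injury list 1 higher and 0 lower of 11, and the targets 0 of 4 by edgeR (2 at an unadjusted p under 0.05, and 1 by DESeq2), with medians of 0.11, 0.09 and 0.29. The bZIP and injury lists were near the share of all genes called.

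In non-neuronal nuclei 5 of 19 immediate early genes were higher in Bern and 0 lower (median 0.50 against -0.06 over all genes). Of all 19164 genes tested 9.29% were called. Dusp1, a phosphatase of MAP kinases, gave 1.73 ± 0.29 (adjusted p = 0.000937), Zfp36, which destabilises AU-rich mRNAs, gave 1.45 ± 0.30 (0.00367) and Egr1 gave 2.74 ± 0.56 (0.00361). Of the injury list 2 of 12 were higher and 0 lower, Stat3 (0.94 ± 0.25, 0.0204) and the small heat shock protein gene Hspb1 (2.27 ± 0.37, 0.000803). The upstream list had 3 of 18 higher (Mapk10, Map3k12 and Elk1) and 0 lower, other bZIP factors had 1 of 21 higher, and the targets 1 of 8 lower. The bZIP and target lists were near the share of all genes called. Most of these calls were lost without the 6 libraries that stood apart, 3 of which are the Bern libraries with the highest neuron marker sums: 2 of the 5 immediate early genes, 1 of the 2 injury genes (Hspb1) and 0 of the 3 upstream genes were then called, and 0 of the other bZIP factors and targets. Mapk10, a JNK gene higher in neuronal nuclei, went from 1.59 ± 0.49 (adjusted p = 0.0447) to 0.40 (0.664), and Map3k12 from 1.12 to 0.80 (0.123). Elk1 (1.15 to 1.32, adjusted p = 0.0533), Egr1 (2.74 to 2.55, 0.0533) and Stat3 (0.94 to 0.98, 0.0517) kept similar fold changes and ended just above the threshold. The parts of neuronal RNA and of the smaller number of libraries in these losses were not tested.

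Between sorts, 11 of 20 immediate early genes were lower in neuronal nuclei and 2 higher (median -0.78 against -0.01 over all genes), beside the 43.5% of all genes called in this comparison. Among them Klf4, a zinc finger factor, fell by 4.51 ± 0.47 on the log2 scale (adjusted p = 3.64e-10), and Ccn1, a secreted matrix protein, by 4.92 ± 0.49 (1.33e-10). Arc, a neuronal activity gene, was higher in neuronal nuclei (3.78 ± 0.53, adjusted p = 1.76e-07). Of the AP-1 targets 6 of 10 were lower and 2 higher (median -1.81), among the lower Ptgs2, the inducible cyclooxygenase, at -4.90 ± 0.53 (adjusted p = 8.22e-10), and the hyaluronan receptor Cd44 at -1.34 ± 0.23 (6.11e-06). The 8 of 21 other bZIP factors and 9 of 18 upstream genes called were near that share of all genes. Of the bZIP factors 6 were lower, led by Maf (-5.31 ± 0.40, adjusted p = 9.82e-14) and Cebpd (-4.15 ± 0.50, 9.83e-09), and 2 higher, with Atf5 at 2.22 ± 0.48 (0.000194). The injury list had 7 of 14 higher and 2 lower (median 1.16), and the higher ones that were named are genes neurons express: Gal, a neuropeptide (3.55 ± 0.38, adjusted p = 7.84e-10), Gap43, a growth cone protein (3.05 ± 0.35, 2.99e-09), the tubulin gene Tubb3 (3.26 ± 0.48, 5.10e-07) and the stathmin gene Stmn4 (2.91 ± 0.47, 2.94e-06). Of the upstream list 5 were higher, led by the JNK gene Mapk10 (3.01 ± 0.29, adjusted p = 4.72e-11), and 4 lower. Without the 6 libraries that stood apart the targets had 3 higher and 3 lower.

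Between segments few list genes were called, beside 5.52% of all genes tested in neuronal and 9.32% in non-neuronal nuclei. In neuronal nuclei edgeR called 0 of 16 immediate early genes (median -0.50 against -0.01 over all genes, 3 at an unadjusted p under 0.05, and 1 by DESeq2) and 0 of 18 other bZIP factors (1, and 0 by DESeq2), while the kinase genes Map3k1 (-1.23 ± 0.29, adjusted p = 0.0116) and Map3k5 (-1.30 ± 0.32, 0.0175, and 0.0502 without Crick colon neuronal 1) were lower in colon. Of the injury list 1 of 11 was lower in colon, the peptidase gene Ecel1 (0.200 against 5.38 CPM, adjusted p = 0.00362). In non-neuronal nuclei 2 of 19 immediate early genes were higher in colon (Klf4 at 1.94 ± 0.50, adjusted p = 0.0178, and Ier2 at 2.75 ± 0.75, 0.0238; list median 0.41 against 0.02 over all genes), and 2 of 8 targets (median 1.14), led by the urokinase receptor gene Plaur (3.65 ± 0.76, 0.00427). The injury list had 3 of 12 called, against 9.32% of genes (median 0.77): the neuropeptide gene Nts (5.25 ± 1.19, adjusted p = 0.00921) and Sprr1a (4.83 ± 1.19, 0.0154) were higher in colon, and Csf1, a macrophage growth factor gene, was lower (-1.53 ± 0.45, 0.0351). Without the 6 libraries that stood apart none of these 2 immediate early genes and 3 injury genes was called (adjusted p of 0.132 for Klf4, 0.113 for Ier2, 0.0592 for Nts, 0.154 for Sprr1a and 0.0653 for Csf1), whereas Plaur was (0.0256). Ier2 was also lost without any 1 of 4 libraries, among them Bern colon non-neuronal 1 (0.0590). Epithelial markers (6 genes) summed to 1487 to 12380 CPM in colon and 138 to 982 CPM in SI non-neuronal libraries, beside the higher colon Atf3, Klf4, Sprr1a and Plaur, and their part was not tested.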

How the data were processed

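Per the labels' protocols, RNA of sorted nuclei was amplified with NuGEN kits and sequenced as 75 bp single ends on a HiSeq4000. The table deposited by the authors holds expected counts for each Ensembl gene. Per the submitters' processing notes, GRCm38 was the build and STAR 2.5.2, RSEM 1.3.0 and DESeq2 1.10.1 were the tools, with no order given, and strand use is not given in the sources used here. The estimated counts were rounded, and symbols, spans and exon lengths were joined by identifier from GENCODE M21 (51719 of 51912 matched). Reads shared by near-identical genes were split by estimation.

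CPM and fold changes came from edgeR 4.0.16 (R 4.3.3): TMM scaling, filterByExpr, group means, quasi-likelihood test, Benjamini-Hochberg at 0.05. Comparisons across sorts used 32 libraries, and the others the 16 of 1 sort. The code was tested on simulated data. Alternatives were no filter, DESeq2's size factors (RLE), DESeq2 1.42.0, limma-voom 3.58.1, a replicate block, 1 fit of all libraries, single strata, each library left out and, added after seeing the data, the 6 libraries that stood apart left out. The replicate block was facility, segment and library number in comparisons across sorts. It was facility and number between segments, and number alone between facilities. No same-group pair of libraries was a duplicate (chi-square per degree of freedom at least 4.12). All 10 members are named, and from each pathway list up to 4 called genes per comparison, by fold, with at least 5 CPM on the higher side. Members, lists and markers were chosen with earlier results of these data known. A total of 0 table columns lay outside the labels.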

Additional observations from a re-analysis of the deposited data

Results flagged for a closer look

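Single libraries stood far from the other 3 of their group, by Dixon's criterion, in 10 of the 73 groups of values tested. Chance flags about 1 in 20 for normally distributed values, a rate that does not apply to groups near 0. A group with counts in 1 library only is always flagged. This was so for Atf3 in Bern colon neuronal and Bern SI non-neuronal, Batf in Crick colon neuronal and Batf3 in Bern SI neuronal libraries. For Fosb the flagged libraries were Bern colon neuronal 1 (44.2 CPM), Bern SI non-neuronal 1 (14.1 CPM) and Crick SI neuronal 2 (4.85 CPM), each the highest of its group. For Atf3 they were Bern colon neuronal 3 (0.713 CPM), Bern SI non-neuronal 4 (0.262 CPM) and Bern SI neuronal 4 (4.70 CPM) as the highest and Crick SI neuronal 1 (0 CPM) as the lowest, 3 of them resting on 0 to 3 counts. For Batf they were Crick colon non-neuronal 3 (6.11 CPM) and Crick colon neuronal 1 (0.446 CPM), and for Batf3 Bern SI neuronal 4 (0.8285 CPM).

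The neuronal against non-neuronal difference of Atf3 differed between segments by a test of the difference itself, -5.01 on the log2 scale (colon minus SI). The value was -8.955 within Bern and -1.07 within Crick, where it was not called. It rests on the Bern SI non-neuronal group, which held 1 Atf3 count, so that the size of the fitted fold depends on the prior count.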

How the results depend on the processing

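Counts of called genes and members moved with the setting. Within single strata the sort comparison called 5421 genes and 2 members in Bern colon, 4007 genes in Crick colon and 2494 genes and 1 member in Crick SI. Within colon, 1 gene was called for sort by facility, 208 genes and 0 members for the non-neuronal and 540 genes and 1 member for the neuronal facility comparison, and within SI 851 genes for the non-neuronal and 119 genes and 0 members for the neuronal one. Within Bern, sort by segment called 2 members and neuronal segments 1, and within Crick sort by segment called 33 genes and 0 members, non-neuronal segments 49 genes and 0 members, and neuronal segments 159 genes. With no filter on low counts the calls were 434 genes (sort by facility), 2 members (non-neuronal segments), 6388 genes and 4 members (non-neuronal facilities), 1627 genes (neuronal segments) and 2145 genes (neuronal facilities). DESeq2 called 625 genes (sort by facility), 2199 genes and 2 members (sort by segment), 2947 genes and 3 members (non-neuronal segments), 2854 genes and 2 members (non-neuronal facilities), 1598 genes and 1 member (neuronal segments) and 2325 genes (neuronal facilities). With limma-voom 2 members were called for non-neuronal segments, 3127 genes for non-neuronal facilities and 1 member for neuronal facilities. In 1 fit of all 32 libraries 2862 genes were called for non-neuronal segments, and 3176 genes and 2 members for non-neuronal facilities. Without the 6 libraries that stood apart, 143 genes were called for sort by facility, 764 for non-neuronal segments, and 745 genes and 0 members for non-neuronal facilities. The main counts of genes, in the order sort, sort by facility, sort by segment, non-neuronal and neuronal segments, non-neuronal and neuronal facilities, were 9369, 44, 1406, 1787, 961, 1781 and 1344. Single strata rest on fewer libraries and an unfiltered table holds further genes, but no cause of these shifts was tested.

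With each library left out in turn, the members called ran from 3 to 6 for sort, 1 to 2 for sort by segment, 1 to 3 for non-neuronal segments, 0 to 1 for neuronal segments, 1 to 2 for non-neuronal and 1 to 2 for neuronal facilities. The genes called ran from 3 to 246 for sort by facility, 1172 to 2417 for non-neuronal segments and 797 to 1818 for neuronal facilities. The fewest genes for sort by facility (3) came without Crick colon neuronal 1 or Crick SI neuronal 1, and the most without Bern SI non-neuronal 1.

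Fold changes that turned around were, for sort, Junb (0.18 within Bern colon, 0.67 within Bern SI, 0.19 with limma-voom and 0.0747 with the replicate block), Srf (0.0401 within Bern colon), Jund (1.06 within Bern SI and -0.55 to 0.0081 with a library left out, the highest without Bern SI non-neuronal 1) and Atf3 (3.98 within Bern SI). For sort by facility they were Atf3 (-0.83 within colon) and Fos (-0.25 to 0.63 with a library left out, below 0 without Bern colon neuronal 1 or, at -0.0518, Bern SI neuronal 1), for sort by segment Fosl2 (-0.0174 within Crick), and for non-neuronal facilities Junb (-0.87 with limma-voom and -0.28 with the replicate block). DESeq2's size factors moved the median log2 fold change of all genes between sorts from -0.01 to -0.11 and turned around no member's direction.

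Deviations of same-numbered neuronal and non-neuronal libraries correlated more strongly in Crick than in Bern. The values were 0.0922 to 0.61 in Crick (7 of 8 pairs over 0.1) and 0.000709 to 0.0587 in Bern (0 of 8). Of 32 libraries 23 correlated best with their own number, 12 of 16 in Bern and 11 of 16 in Crick, so that this measure was alike in both facilities. Each library was compared with the 4 libraries of the other sort in its stratum, its own number among them. This count does not depend on the limit of 0.1, and it is a hint of pairing that the labels do not explain. Pairing was not taken as given in the main fits, because the labels do not state it and not every pair passed 0.1. Calls with the replicate block are therefore given beside the main ones. The replicate block called 9049 genes for sort, where Fos (adjusted p = 0.0489) and Fosb (0.0360) were then called as well, 11 for sort by facility, 984 for sort by segment, 1273 and 710 for non-neuronal and neuronal segments, and 1413 and 909 for non-neuronal and neuronal facilities. Members averaging under 5 CPM in at least 5 of the 8 groups (Fosb, Fosl1, Atf3, Batf and Batf3) are limited by depth.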

Other observations

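Besides Fos and Egr1, the genes whose lowest value fell on library 4 in at least 7 of the 8 groups were Tbc1d7, Ripk1, Gpam, Pcdhb15, Zbtb25, Kdm5d and Slc4a7, the last in all 8 groups. Egr1 ranged in Bern from 101 to 1618 CPM in colon neuronal, 104 to 1161 CPM in SI neuronal, 67.7 to 1166 CPM in colon non-neuronal and 40.3 to 855 CPM in SI non-neuronal libraries. In Crick it ranged from 22.8 to 50.4 CPM in colon neuronal, 10.9 to 45.5 CPM in SI neuronal, 47.7 to 249 CPM in colon non-neuronal and 10.2 to 86.9 CPM in SI non-neuronal libraries, so that every Bern neuronal library was above every Crick neuronal library, as was not the case in non-neuronal nuclei.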
